A study of Mus musculus with 15 samples.

Results

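The genes described here load peptides onto MHC class I molecules or make the immunoproteasome, and they were taken from the table by symbol: the heavy chains H2-K1 and H2-D1, the light chain B2m, the peptide transporter and its bridge Tap1, Tap2 and Tapbp, the immunoproteasome subunits Psmb8, Psmb9 and Psmb10, and the regulator Nlrc5. All 10 were among the 21851 genes listed, and all 10 passed the filter on low values, as did 11311 genes in total. The libraries were made from tumour blocks of mice bearing MC38, a colon adenocarcinoma line that grows in mice of its own strain, labelled wild type throughout. The 3 groups of 5 tumours had received vehicle, anti-PD-1 antibody, which blocks a checkpoint receptor on T cells, or anti-PD-1 antibody with BG136, a soluble glucan with β-1,3 and β-1,6 linkages, in each case by intravenous injection. The title and the design text disagree on the organism BG136 comes from, and it is left out here. Doses, schedules, ages and the name of the mouse strain were not given in the sources used here. A group with BG136 alone was not analysed here, so the glucan could be read only on top of the antibody.

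Class I molecules display peptides from inside the cell to CD8 T cells. The proteasome cuts proteins into peptides, and under interferon-gamma the catalytic subunits encoded by Psmb8, Psmb9 and Psmb10 take the places of Psmb5, Psmb6 and Psmb7 in newly built particles. The TAP transporter, a dimer of Tap1 and Tap2, carries peptides into the endoplasmic reticulum, where tapasin (Tapbp), calreticulin (Calr) and Pdia3 hold the empty heavy chain with β2-microglobulin (B2m) until a peptide fits. Nlrc5 is a transactivator that is brought to class I promoters by proteins bound to their X and Y boxes, and its own gene is induced by interferon-gamma. Loss of these genes is a known route by which tumours escape T cells, and immune cells in a tumour express them as well.

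The promoters of the heavy chains and of B2m are shown because this family is known for a shared promoter arrangement. Sequences are from RefSeq on build GRCm38.p6, which is older than the build named for the expression table, and 8 of the 10 genes had an entry (Tap2 and Nlrc5 had none). Capitals mark the letters TGACG, the core of an X2 box, and ATTGG, an inverted CCAAT of a Y box, together with AANNGAAA in either orientation, a core of interferon-response elements, and the NF-kB consensus. Each stretch is the 160 bases before the annotated start, 5′ to 3′ on the gene's strand. H2-D1 also has the NF-kB consensus, but it begins 171 bases before the start and so lies outside the stretch shown. The H2-D1 stretch holds another ATTGG on the opposite strand. It reads ccaat from 53 bases before the start and was left in lower case.
H2-K1, chr17:34000348-34000507, minus strand: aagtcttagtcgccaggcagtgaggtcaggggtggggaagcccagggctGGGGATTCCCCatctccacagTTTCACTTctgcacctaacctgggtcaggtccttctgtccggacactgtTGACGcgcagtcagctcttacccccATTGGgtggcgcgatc
H2-D1, chr17:35262934-35263093, plus strand: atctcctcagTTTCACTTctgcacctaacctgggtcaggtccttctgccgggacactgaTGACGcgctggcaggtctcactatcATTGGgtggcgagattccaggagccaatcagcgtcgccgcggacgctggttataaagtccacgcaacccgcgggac
B2m, chr2:122147527-122147686, plus strand: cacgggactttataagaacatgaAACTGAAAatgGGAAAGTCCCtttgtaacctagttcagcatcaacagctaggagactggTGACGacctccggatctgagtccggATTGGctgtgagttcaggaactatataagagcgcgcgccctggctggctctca

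In all 3 promoters exactly 20 bases separated TGACG from ATTGG, on the same strand. The pair with that gap, searched on both strands in the 250 bases before each start, was found in 30 of 32851 windows (0.0913%), belonging to 26 of 27025 genes, and H2-M3, another class I heavy chain, was among them. Alone the letters are common: TGACG was in 17.8% of windows, ATTGG in 33.8%, AANNGAAA in 21.3% and the NF-kB consensus in 7.25%. The gap was chosen after the sequences had been read, so its rarity is a description. The pair began, at the first listed start of each gene, 41 bases before the start in H2-K1, 101 in H2-D1 and 78 in B2m. Aligned at the pair, the H2-K1 and H2-D1 windows matched at 128 of 141 bases (90.8%). Some of these bases lie upstream of the H2-D1 stretch shown. The windows of Tap1, Psmb9, Tapbp, Psmb8 and Psmb10 did not hold the pair at this gap, which says nothing about what binds there.

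Tap1 and Psmb9 lie head to head, with 225 bases between their starts, so a single stretch of DNA is the promoter of a transporter gene on one side and of an immunoproteasome gene on the other. It is shown in the direction of Tap1, with TGACG and CCAAT, which is ATTGG read on the opposite strand, in capitals.
Tap1 and Psmb9 shared promoter, chr17:34187331-34187555, plus strand: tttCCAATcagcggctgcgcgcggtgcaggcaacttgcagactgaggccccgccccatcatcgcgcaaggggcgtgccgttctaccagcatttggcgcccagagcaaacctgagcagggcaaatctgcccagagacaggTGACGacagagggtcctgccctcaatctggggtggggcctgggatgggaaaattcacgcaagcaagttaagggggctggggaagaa

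The deposited values were read as FPKM, which divides a gene's fragments by its length and by the size of the library. Their sum per library lay between 377509 and 424899, the highest being combination replicate 4, and read totals are unknown, so no counting interval can be given. Markers of colon epithelium were low: Cdx2 was listed at 0 in every library and Vil1 reached at most 0.052 FPKM. The 9 epithelial markers summed to 1.24 to 7.25 FPKM in vehicle, 1.55 to 20.2 in anti-PD-1 and 3.27 to 28.1 in the combination. Values of the line itself were not examined, so these markers neither bear out nor contradict the labelled cell type. Summed leukocyte markers were higher in every treated tumour than in any vehicle tumour, and the treated groups overlapped. The 9 pan-leukocyte markers summed to 517 to 593 FPKM in vehicle, 696 to 821 in anti-PD-1 and 708 to 1792 in the combination, in which replicates 3 and 5 were highest and replicate 2 lowest. By limma 9 of the 9 passed in the combination against vehicle, 0 in anti-PD-1 against vehicle and 0 between the treated groups. Over all tested genes 40.5%, 5.55% and 0.0619% passed, in the same order. With the antibody alone all 9 lay above vehicle without overlap, beside 13.7% of tested genes that did not overlap. In such blocks a change in the mix of cells and a change in RNA per cell cannot be told apart.

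These were among the most abundant messages in the tumours. B2m was at 3149 ± 251 FPKM in vehicle (SD, n = 5), 5th of 11311 tested genes, H2-D1 at 1266 ± 80.7, ranked 37th, and H2-K1 at 724 ± 47.3, ranked 77th. Psmb8 followed at 399.6 ± 13.7 and Tapbp at 253 ± 11.2, then Psmb9 at 126 ± 11.7. Tap1 and Tap2 were level in vehicle, at 100.1 ± 4.33 and 101 ± 2.49, and their ranges overlapped. Psmb10 was at 74.7 ± 6.61, and Nlrc5 was by far the lowest at 14.3 ± 0.786, ranked 4173rd. H2-K1 and H2-D1 resemble each other and the Q and T heavy chains closely in sequence, so how reads were split among them is uncertain.

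**Figure D1:**
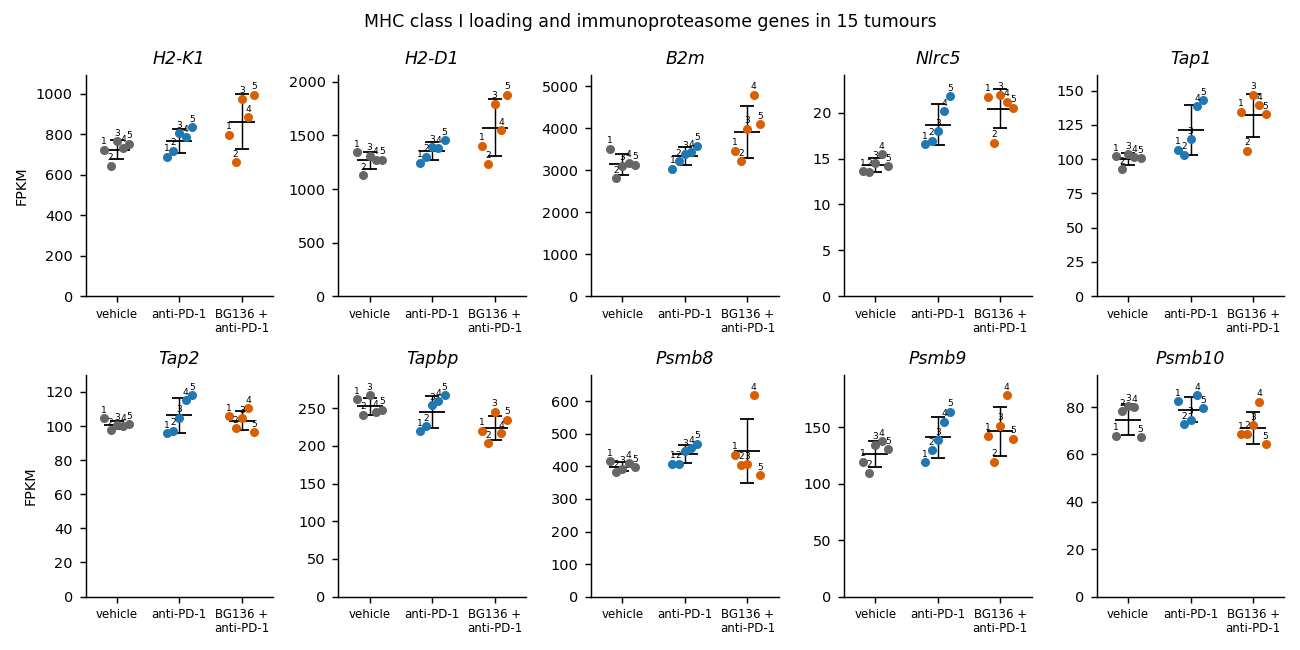
FPKM of each of the 10 genes (vertical axes, starting at 0) in 5 tumours of each group; each point is a library numbered by replicate, the bar is the mean and the whiskers are 1 SD. The combination points of Nlrc5 and Tap1 lie above every vehicle point, while those of Tap2, Psmb8 and Psmb10 overlap them. For Psmb9 only combination replicate 2 lies inside the vehicle range.

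The first comparison set the combination against vehicle. Nlrc5, Tap1, B2m and H2-D1 rose, Tapbp fell, and H2-K1, Tap2 and the 3 immunoproteasome genes did not pass the test. The changes were small, from 11.4% lower for Tapbp to a fold of 1.40 for Nlrc5. Thus 5 of 10 genes passed, 4 higher and 1 lower, beside 40.5% of all tested genes (16.6% higher and 23.9% lower), so the share called was close to the background. An unadjusted p under 0.05 was found for 6 of the 10, beside 49.8%, and an exact p under 0.05 for 5, beside 44.1%. The median log2 change of the 10 was 0.22, beside -0.05 over all tested genes. With median-ratio scaling, 53.7% of the calls over all genes were higher instead of 40.9%. In 2 of 10 genes the groups did not overlap, as in 24% of tested genes. Without combination replicates 3 and 5, the libraries with the most leukocyte RNA, 3 of the 10 passed. With no filter on low values, or with vehicle and combination fitted alone, 2 passed, Nlrc5 and Tap1. The share over all tested genes under each of these settings is not given here, so these counts are not read against a background.

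**Figure D2:**
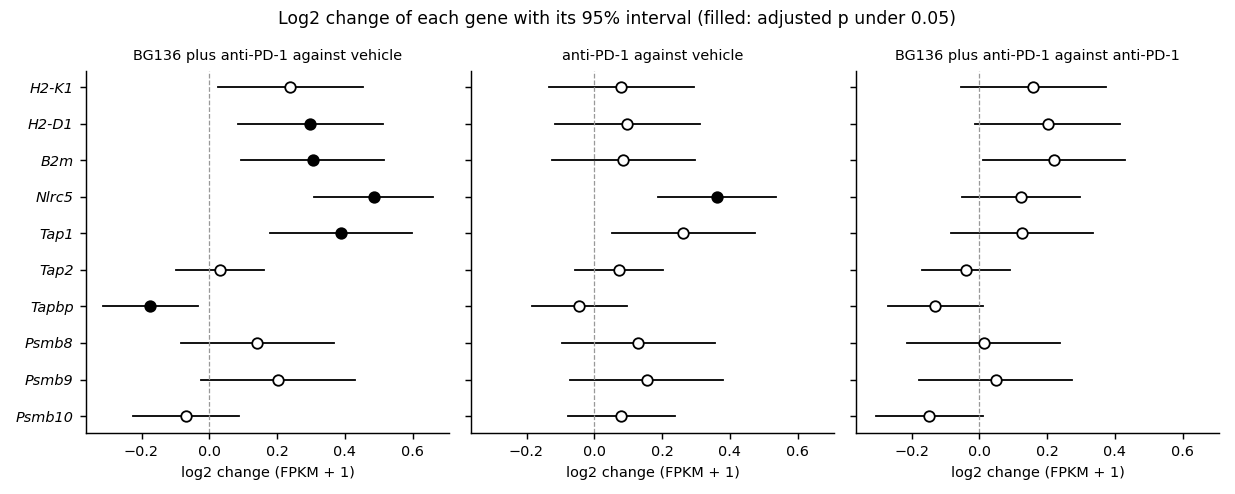
Log2 change of each gene on the log2(FPKM + 1) scale with its 95% interval, in the 3 comparisons named above the panels; filled points passed an adjusted p of 0.05 by limma over 11311 genes. Filled points number 5 in the first panel, 1 (Nlrc5) in the second and 0 in the third.

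B2m, the light chain that every class I molecule needs, was at 3514, 2808, 3113, 3178 and 3131 FPKM in vehicle replicates 1 to 5. In the combination it was at 3472, 3223, 3992, 4803 and 4099.8. Each combination tumour exceeded the vehicle mean and 3 exceeded the highest vehicle tumour. The log2 change was 0.30 ± 0.10 (SE), a fold of 1.24 (adjusted p = 0.0237, exact p = 0.0238). This call ended without vehicle replicate 2, the lowest vehicle tumour (0.26, adjusted p = 0.0622), and without combination replicates 3 and 5 (0.26, adjusted p = 0.0927).

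H2-D1, the heavy chain of the D locus, was at 1341, 1131, 1311, 1275 and 1272 FPKM in vehicle and at 1406, 1235, 1794, 1549 and 1879.8 in the combination. Combination replicate 2 lay inside the vehicle range and the other 4 tumours above it. The log2 change was 0.30 ± 0.10, a fold of 1.23 (adjusted p = 0.0284, exact p = 0.0476). It was lost without vehicle replicate 2 (0.26, adjusted p = 0.0719), combination replicate 3 (0.25, adjusted p = 0.0755) or combination replicate 5 (0.23, adjusted p = 0.0679), and with both of these combination tumours left out the value was 0.14 (adjusted p = 0.206). H2-K1, the heavy chain of the K locus, was at 724, 644, 765, 734 and 753 FPKM in vehicle and at 796, 662, 974, 884 and 995 in the combination. Its pattern by tumour was like that of H2-D1, with combination replicate 2 again inside the vehicle range. The log2 change of 0.24 ± 0.10 missed the threshold (adjusted p = 0.0682, 95% interval 0.03 to 0.45), and it passed without combination replicate 2 (0.33, adjusted p = 0.00489) and with median-ratio scaling (0.30, adjusted p = 0.0394).

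Nlrc5, the class I transactivator, was at 13.6, 13.6, 14.5, 15.5 and 14.2 FPKM in vehicle. It was at 21.7, 16.7, 22, 21.2 and 20.5 in the combination. Every combination tumour was above every vehicle tumour, and replicate 2 stood below the other 4. The log2 change of 0.48 ± 0.08, a fold of 1.40, was the largest of the 10 (adjusted p = 5.9e-04, exact p = 0.00794, the smallest that 5 against 5 allows). It passed under every alternative run, as did Tap1, with adjusted p of at most 0.0429 for either.

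Tap1, which forms the peptide channel with Tap2, was at 102, 92.7, 104, 101 and 101 FPKM in vehicle and at 135, 106, 147, 139.6 and 133 in the combination. The groups did not overlap. The log2 change was 0.39 ± 0.10, a fold of 1.31 (adjusted p = 0.00691, exact p = 0.00794). Tap2, its partner in the dimer, was at 105, 97.7, 101, 99.8 and 101 FPKM in vehicle and at 106, 98.9, 105, 110.4 and 96.3 in the combination. These ranges overlapped throughout, and the log2 change was 0.03 ± 0.06 (adjusted p = 0.698, 95% interval -0.10 to 0.16).

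The ratio of Tap1 to Tap2 within each library does not depend on how that library was scaled. It was 0.978, 0.949, 1.03, 1.02 and 0.996 in vehicle and 1.12, 1.06, 1.09, 1.20 and 1.21 in anti-PD-1. In the combination it was 1.28, 1.07, 1.41, 1.26 and 1.38. No treated tumour reached down to the vehicle range, while the treated groups overlapped, with combination replicate 2 among the anti-PD-1 values. The ratio was chosen after the values had been seen, so it is given with no test.

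Tapbp, tapasin, which bridges TAP and the empty class I molecule, was at 262, 242, 267, 245 and 248 FPKM in vehicle and at 220.2, 204, 246, 217 and 235 in the combination. Of the 5 combination tumours, 4 lay below the vehicle range, and replicate 3 lay inside it. The log2 change was -0.17 ± 0.07 (adjusted p = 0.0464, exact p = 0.0238). The call was at the threshold: leaving out a single tumour ended it in 8 of 10 cases (adjusted p up to 0.106), all but combination replicates 3 and 5, and with median-ratio scaling the value was -0.12 (adjusted p = 0.196).

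**Figure D3:**
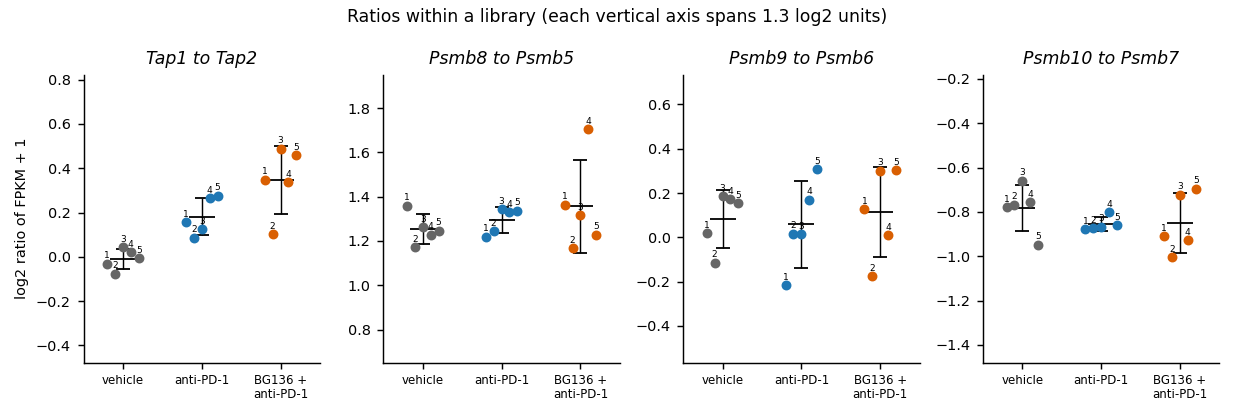
Log2 ratio of FPKM + 1 within each library for Tap1 to Tap2 and for each immunoproteasome subunit to the constitutive subunit it replaces; points are libraries numbered by replicate, with the mean and 1 SD. Vehicle stands apart from both treated groups for Tap1 to Tap2, from 0.949 to 1.03 as a linear ratio, and the groups overlap in the other panels.

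None of the 3 immunoproteasome genes passed the test. Psmb8, the chymotrypsin-like subunit, was at 416, 382, 393, 409.9 and 397 FPKM in vehicle and at 437, 405, 408, 619.8 and 372 in the combination. Combination replicate 4 stood alone, and with it the log2 change was 0.14 ± 0.11 (adjusted p = 0.296), without it 0.02. Psmb9, the subunit that takes the place of Psmb6, was at 119, 109.6, 134, 138 and 131 FPKM in vehicle and at 142, 119, 151, 178 and 139.7 in the combination. Combination replicate 2 lay inside the vehicle range and the other combination tumours above it. The log2 change of Psmb9 was 0.20 ± 0.11 (adjusted p = 0.139, 95% interval -0.02 to 0.43). Tap1, its shared-promoter neighbour, passed, but the difference between these genes was not tested. Without combination replicate 2 Psmb9 passed (0.27, adjusted p = 0.0409). Psmb10, the trypsin-like subunit, was at 67.9, 78.3, 80.2, 80.0 and 67.2 FPKM in vehicle and at 68.5, 68.8, 72.4, 82.2 and 64.2 in the combination. Its ranges overlapped, with a log2 change of -0.07 ± 0.07 (adjusted p = 0.481).

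The balance of immunoproteasome to constitutive subunits was compared within libraries. Psmb8 was above Psmb5 in every tumour, with a mean log2 ratio of 1.25 ± 0.07 in vehicle (SD, n = 5), 1.29 ± 0.06 in anti-PD-1 and 1.36 ± 0.21 in the combination. Psmb9 and Psmb6 were near parity, at 0.08 ± 0.13, 0.06 ± 0.20 and 0.11 ± 0.20 in the same order. Psmb10 was below Psmb7 in every tumour, at -0.78 ± 0.10, -0.86 ± 0.03 and -0.85 ± 0.14. None of the 9 comparisons of these ratios passed an exact permutation test, with differences from -0.07 to 0.10, raw exact p from 0.143 to 0.944 and adjusted p of at least 0.893. The spread between combination tumours was wide for Psmb8 to Psmb5, where replicate 4 had a linear ratio of 3.27 and the other 4 lay between 2.25 and 2.58.

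Lists of other genes of the pathway were read in the same comparison. Of 11 other class I heavy chains tested, 2 rose and 0 fell, with a median log2 change of 0.16, and that share is near the 16.6% of all tested genes called higher. H2-T23, which encodes Qa-1, the ligand of an inhibitory receptor on natural killer and T cells, was at 105, 86.5, 110.4, 121 and 119 FPKM in vehicle and at 190.4, 122, 287, 213 and 306 in the combination. Combination replicate 2 was barely above the highest vehicle tumour and replicates 3 and 5 were highest, as for leukocyte markers. Its log2 change of 0.97 ± 0.20, a fold of 1.96, exceeded that of each of the 10 loading genes (adjusted p = 0.00197), and it was 0.65 (adjusted p = 0.0116) without replicates 3 and 5. H2-Q7, a Qa-2 heavy chain, rose by 0.37 ± 0.12 (adjusted p = 0.0227), which ended without vehicle replicate 2 (0.30, adjusted p = 0.0611), vehicle replicate 5 (0.31, adjusted p = 0.0622), combination replicate 1 (0.32, adjusted p = 0.0527) or combination replicate 4 (0.32, adjusted p = 0.0518), with weights per group (adjusted p = 0.0696) or with the compared groups alone (adjusted p = 0.0575). H2-M3, which presents formylated peptides and carries the promoter pair described above, changed by 0.21 ± 0.08 (adjusted p = 0.0546), and Cd1d1, which presents lipids, by 0.43 ± 0.22 (adjusted p = 0.130).

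Calreticulin, calnexin, Pdia3, Uggt1 and Bcap31, which act on class I molecules in the endoplasmic reticulum, fell. Of 8 genes in the list of loading chaperones and peptide trimming, 5 fell and 1 rose, and the median log2 change was -0.25, beside 23.9% of all tested genes called lower and a median of -0.05. Calnexin (Canx), which receives the new heavy chain, was at 165 to 177 FPKM in vehicle and 129 to 161 in the combination. Pdia3, a disulfide isomerase of the loading complex, was at 299.5 to 344 in vehicle and 258 to 287 in the combination. For both genes the groups did not overlap, as in 24% of tested genes, with log2 changes of -0.27 ± 0.06 (adjusted p = 0.0022) and -0.24 ± 0.05 (adjusted p = 0.0033).

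Uggt1, which senses misfolded glycoproteins, fell by 0.27 ± 0.05 (adjusted p = 8.4e-04), and Bcap31, an export factor of the endoplasmic reticulum, fell by 0.26 ± 0.05 (adjusted p = 0.0025), both without overlap. Calr, calreticulin, fell by 0.31 ± 0.08 (adjusted p = 0.0080), with 4 of 5 combination tumours below the vehicle range. All 5 kept their direction and stayed past the threshold under each alternative run, including without combination replicates 3 and 5. Most of these proteins serve many glycoproteins besides class I. The aminopeptidase Lnpep rose by 0.31 ± 0.11 (adjusted p = 0.0310), and this ended without combination replicates 3 and 5 (0.16, adjusted p = 0.236) and in 6 of 10 runs that left out a single tumour. The tapasin relative Tapbpl, at 22.5 to 28.6 FPKM in vehicle and 28.1 to 35.3 in the combination, changed by 0.24 ± 0.10 (adjusted p = 0.0573).

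**Figure D4:**
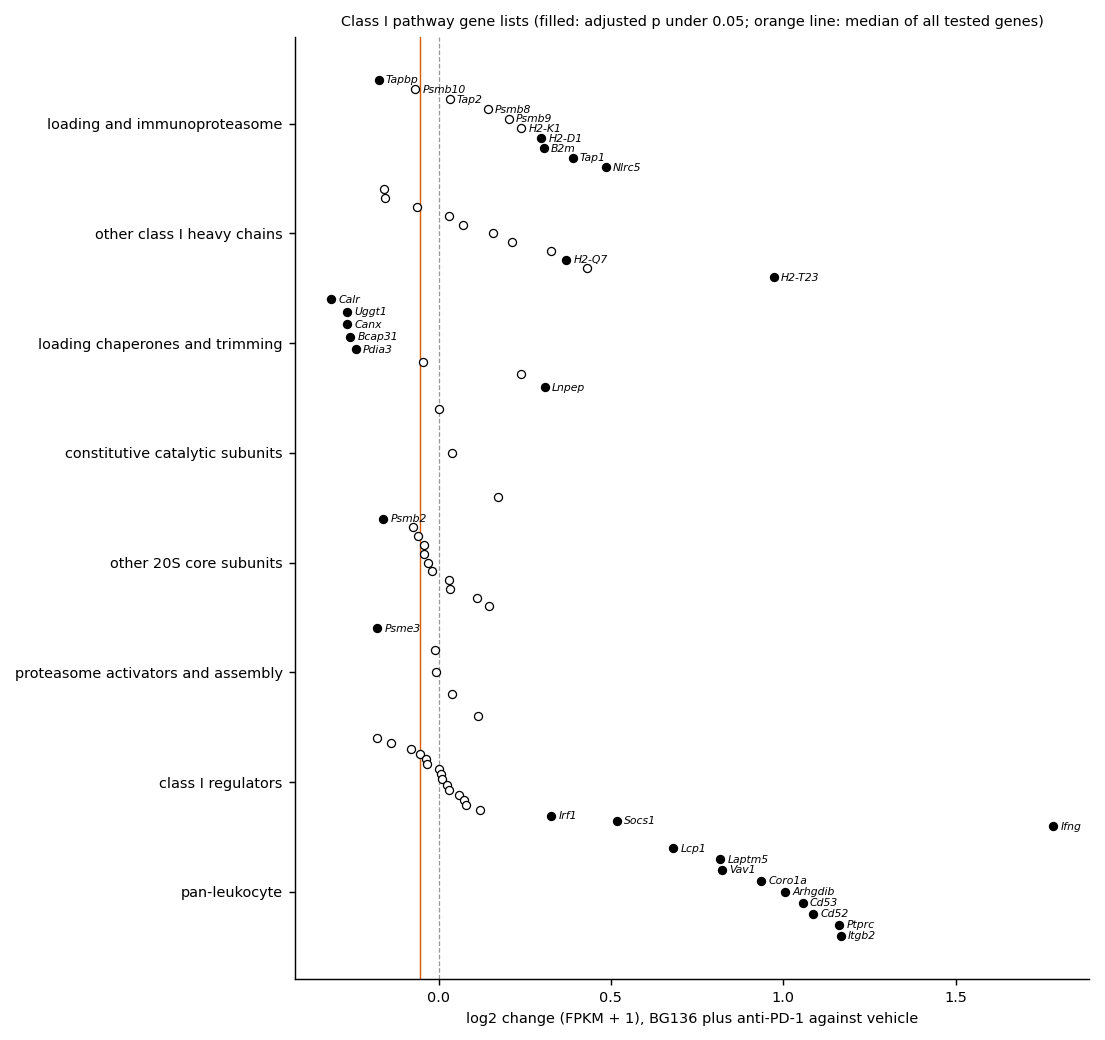
Log2 change on the log2(FPKM + 1) scale, BG136 plus anti-PD-1 against vehicle, of the tested genes in the loading and immunoproteasome set, 6 other pathway lists and the pan-leukocyte markers; filled points passed an adjusted p of 0.05 and the orange line is the median of all tested genes, -0.05; 1 regulator that passed is not shown. Pan-leukocyte markers, from 0.68 to 1.17, lie to the right of each of the 10 loading genes, and 5 chaperones form a group at the left.

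The other proteasome genes examined, of the 20S core, its activators and its assembly, changed little. Among the 3 constitutive catalytic subunits 0 passed by limma, 0 had an unadjusted p under 0.05 and 0 had an exact p under 0.05, with log2 changes of 0.04 ± 0.05 for Psmb5, 0.17 ± 0.09 for Psmb6 and 0.00 ± 0.09 for Psmb7. Psmb6 passed with median-ratio scaling (0.23, adjusted p = 0.0413) and without combination replicate 5 (0.23, adjusted p = 0.0372). Of 11 other subunits of the 20S core, 1 passed: Psmb2 changed by -0.16 ± 0.06 (adjusted p = 0.0378), a call that ended in 6 of 10 runs that left out a single tumour and with median-ratio scaling, where Psma3 and Psma6 passed instead, both higher. Main values were 0.15 ± 0.07 for Psma3 (adjusted p = 0.0857), 0.11 ± 0.06 for Psma6 (adjusted p = 0.167) and -0.06 ± 0.05 for Psmb1 (adjusted p = 0.337). Of 5 activators and assembly factors, Psme3, the nuclear activator, changed by -0.18 ± 0.07 (adjusted p = 0.0473), a call that ended with median-ratio scaling (adjusted p = 0.150), no filter (adjusted p = 0.0554), the replicate block (adjusted p = 0.0649), the compared groups alone (adjusted p = 0.0913), without combination replicates 3 and 5 (adjusted p = 0.0743) and in 7 of 10 runs that left out a single tumour. The interferon-inducible activator pair changed by 0.04 ± 0.07 for Psme1 and -0.01 ± 0.10 for Psme2, Psme4 by -0.01 ± 0.07, and the assembly factor Pomp by 0.11 ± 0.08, none past the threshold.

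Of 19 regulators, 4 rose and 0 fell, a share near the 16.6% of all tested genes that were called higher, and with no filter on low values 3 rose. Ifng, the cytokine that induces this pathway, was at 2.64, 2.48, 2.41, 2.67 and 2.44 FPKM in vehicle and at 10.3, 5.20, 17.5, 11.7 and 15 in the combination. Again the lowest combination tumour was replicate 2. Its log2 change was 1.78 ± 0.28 (adjusted p = 3.7e-04, exact p = 0.00794), without overlap. Irf1, a transcription factor that binds interferon-response elements, changed by 0.33 ± 0.10 (adjusted p = 0.0212), and both of these calls held under each alternative run. Socs1, a feedback inhibitor of cytokine signalling, changed by 0.52 ± 0.17 (adjusted p = 0.0255). This call ended without vehicle replicate 2 (adjusted p = 0.0582), vehicle replicate 3 (0.0534), vehicle replicate 5 (0.0555), combination replicate 3 (0.0705) or combination replicate 4 (0.0536), and without combination replicates 3 and 5 (adjusted p = 0.103). The X-box and Y-box proteins were not called: Rfx5, Rfxap, Rfxank, Nfya, Nfyb, Nfyc and Creb1 changed by -0.18 to 0.03 with adjusted p of at least 0.0978.

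Markers of several cell types rose in the same tumours. All 9 pan-leukocyte markers rose, with a median log2 change of 1.00, as did 6 of 6 T cell markers (median 1.44) and 6 of 7 macrophage markers (median 0.92). Among other leukocytes, 1 of 4 dendritic cell markers rose and 0 of 2 natural killer and 0 of 1 B and plasma cell markers passed. Outside the leukocytes, 4 of 5 endothelial markers rose (median 0.73), and 3 of 5 fibroblast markers rose and 1 fell (median 1.27). Of red blood cell and colon epithelial markers, 1 of 3 and 1 of 5 rose, and 0 of 4 adipocyte and 0 of 5 muscle markers passed. Over all tested genes 16.6% were called higher and 23.9% lower. A single call in a list this short is therefore not read as a result about that cell type. Ptprc, the common leukocyte antigen, was at 17.6 to 21.4 FPKM in vehicle and at 39.7, 28.3, 63.7, 32.7 and 75.9 in the combination. Cd8a, a chain of the receptor that binds class I, was at 3.57 to 5.67 in vehicle and at 14.2, 10.2, 16.3, 10.9 and 32.0 in the combination, and the macrophage marker Adgre1 at 38.8 to 51.7 and at 74.5, 51.7, 120.0, 64.9 and 154. Replicates 3 and 5 led in all 3 genes, as they did for H2-K1 and H2-D1, while B2m, Tap2, Psmb8, Psmb9 and Psmb10 were highest in replicate 4. The summed FPKM of the 10 loading genes had a median of 6276 in vehicle (5598 to 6665) and 7911 in the combination (6139 to 8605), beside medians of 580.1 and 1023 for the pan-leukocyte markers. Most of the sum over the 10 genes is B2m, H2-D1 and H2-K1, so it says little of the other genes. The part of RNA from these cell types in the class I changes was not tested.

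The antibody alone was then set against vehicle. Nlrc5 rose, and it was the only one of the 10 genes to pass, beside 5.55% of all tested genes (2.21% higher and 3.34% lower). An unadjusted p under 0.05 was found for 2 of the 10, beside 23%, an exact p under 0.05 for 3, beside 32.2%, and the median log2 change of the 10 was 0.09, beside 0.01 over all tested genes. It was at 16.6, 17, 18, 20.2 and 21.8 FPKM with the antibody, each above the highest vehicle tumour at 15.5. The log2 change was 0.36 ± 0.08, a fold of 1.29 (adjusted p = 0.0217, exact p = 0.00794). Such separation without overlap held for 13.7% of tested genes. The call ended without vehicle replicate 1 (0.35, adjusted p = 0.0586), vehicle replicate 3 (0.37, adjusted p = 0.0508), vehicle replicate 5 (0.36, adjusted p = 0.0588), anti-PD-1 replicate 4 (0.33, adjusted p = 0.0557) or anti-PD-1 replicate 5 (0.31, adjusted p = 0.0610), while each of these values stayed positive.

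Tap1 was at 107, 103, 115, 139 and 143 FPKM with the antibody, and replicate 2 lay inside the vehicle range, which ended at 104. Its log2 change of 0.26 ± 0.10 did not pass after adjustment (adjusted p = 0.131, exact p = 0.0159), although it did in a fit with weights per group (adjusted p = 0.0346). Psmb8, at 408, 409, 446, 456 and 469.5, changed by 0.13 ± 0.11 (adjusted p = 0.493, exact p = 0.0476). H2-K1 was at 689, 718, 804, 784 and 834, H2-D1 at 1243, 1299.8, 1390.2, 1379 and 1457, and B2m at 3039, 3224, 3402, 3431 and 3589. For all 3 genes the groups overlapped, with log2 changes of 0.08 ± 0.10, 0.10 ± 0.10 and 0.09 ± 0.10. Tap2 was at 95.9, 97.3, 105, 115 and 118, Tapbp at 219.8, 226, 254, 259 and 268, Psmb9 at 119, 129.6, 138, 155 and 164, and Psmb10 at 82.5, 72.7, 74.7, 85.1 and 79.5, and these ranges overlapped vehicle too. Adjusted p of the 8 genes other than Nlrc5 and Tap1 lay between 0.409 and 0.738.

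Among the pathway lists under the antibody alone, Ifng rose by 1.20 ± 0.28 (adjusted p = 0.0224), with values of 5.28, 5.40, 4.72, 10.2 and 12.7 FPKM. H2-Q7 rose by 0.43 ± 0.12 (adjusted p = 0.0462), and it was the only call among 11 heavy chains, beside 2.21% of all tested genes called higher. Whether the Ifng and H2-Q7 calls held under the alternative runs is not given here. H2-T23 changed by 0.56 ± 0.20 (adjusted p = 0.111, exact p = 0.00794), with 135 to 196 FPKM against 86.5 to 121 in vehicle, without overlap. In the lists of chaperones, constitutive subunits, other 20S subunits and activators, 0 genes passed by limma, beside 3, 0, 3 and 1 at an unadjusted p under 0.05 and 4, 3, 4 and 1 at an exact p under 0.05. These lists hold 8, 3, 11 and 5 tested genes, and the shares over all tested genes were 23% and 32.2%. Canx was at 152 to 171 FPKM and Calr at 376 to 443, between the other groups by mean.

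Setting the combination against the antibody alone shows what BG136 added. By limma 0 of the 10 genes passed, 1 (B2m) had an unadjusted p under 0.05, and 0 had an exact p under 0.05. Over all tested genes 0.0619% passed, 28.2% had an unadjusted p under 0.05 and 18.5% had an exact p under 0.05. The log2 changes were 0.22 ± 0.10 for B2m (adjusted p = 0.163, 95% interval 0.01 to 0.43), 0.20 ± 0.10 for H2-D1 (adjusted p = 0.198) and 0.16 ± 0.10 for H2-K1 (adjusted p = 0.291). For Nlrc5 the difference was 0.12 ± 0.08 (adjusted p = 0.320, 95% interval -0.05 to 0.30), and for Tap1 it was 0.13 ± 0.10 (adjusted p = 0.392), so neither gene was shown to differ between the treated groups. Tapbp and Psmb10 changed by -0.13 ± 0.07 (adjusted p = 0.204) and -0.15 ± 0.07 (adjusted p = 0.198), and Tap2, Psmb8 and Psmb9 by -0.04, 0.01 and 0.05. Groups did not overlap for 4.50% of tested genes and for 0 of the 10.

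This comparison turned on combination replicate 2. Without it 3 of the 10 passed, H2-K1 (0.25, adjusted p = 0.0446), H2-D1 (0.28, adjusted p = 0.0377) and B2m (0.29, adjusted p = 0.0453), while over all genes the number of calls went from 7 to 2222. The gain in calls was thus not particular to these genes. That tumour had the lowest value of its group for 7 of the 10 genes and was among the highest 2 for 0, and it also had the least Ifng, Ptprc and Cd8a of its group. The sample descriptions carry prefixes of unstated meaning that differ within the combination group, where replicate 2 shares its prefix with replicate 3, and within vehicle. Their part in the result was not tested.

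**Figure D5:**
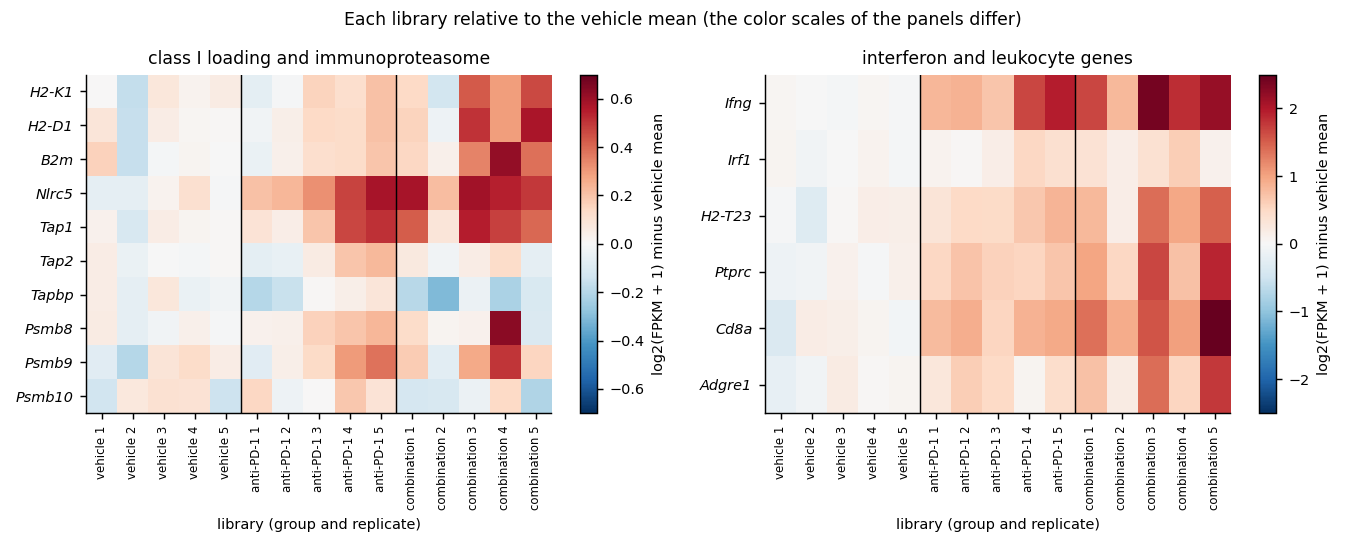
Log2(FPKM + 1) of each library minus the vehicle mean, for the 10 genes (left) and for interferon and leukocyte genes (right), with libraries in columns and vertical lines between groups; the color scales of the panels differ. Anti-PD-1 replicates 4 and 5 and combination replicates 1, 3, 4 and 5 are the columns with high Nlrc5 and Tap1, and also those with more than 10 FPKM of Ifng.

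Tumours kept a similar order across the genes most clearly in the anti-PD-1 group. In the anti-PD-1 group, replicate 5 was highest for 9 of the 10 genes and replicate 1 lowest for 8, and replicate 4 was among the highest 2 for 8. Replicates 4 and 5 also had the most Ifng of that group (10.2 and 12.7 FPKM, beside 4.72 to 5.40 in the others). Without both of them, Nlrc5 changed by 0.25 against vehicle (adjusted p = 0.168). Vehicle replicate 2 was lowest for 9 of the 10, though the vehicle Ifng values spanned only 2.41 to 2.67. The highest vehicle value was in replicate 1 for 4 genes, replicate 3 for 4 and replicate 4 for 2. Psmb10 was the exception in the anti-PD-1 group, with replicate 4 highest. In the combination the order was mixed: replicate 4 was highest for 5 genes, replicate 3 for 3 and replicate 5 for 2. Combination replicate 5 was also lowest for 3.

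To name the genes whose pattern was most like that of the 10, their log2 values were standardized, averaged per library and correlated with 11301 other genes over 15 libraries. Among the 8 nearest were Gbp4 (Pearson r = 0.93, Spearman rho = 0.94), Igtp (0.89 and 0.82), Cxcl9 (0.89 and 0.86), Socs1 (0.88 and 0.81), H2-M3 (0.87 and 0.91), Irf1 (0.87 and 0.76) and Gbp2 (0.87 and 0.76). Gbp4, Gbp2 and Igtp encode interferon-inducible GTPases, and Cxcl9 a chemokine that attracts T cells. The libraries include the treatment groups and differ in leukocyte RNA, so these coefficients are a description. Of these 7 genes, 5 passed by limma in the combination against vehicle, all but Gbp4 (0.32 ± 0.17, adjusted p = 0.146) and H2-M3.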

How the data were processed

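Libraries were made with a stranded mRNA kit from total RNA of 15 tumour blocks, per the labels. The deposited table gives 1 value per gene and library under a header that names no unit. The unit, FPKM computed by the authors, was inferred from the values and from Cufflinks being among the tools. The submitters' processing notes list besides it DESeq, HTSeq, HISAT2 and Trimmomatic (no version or role stated) and the build GRCm39. Of 21878 entries, 27 with dates for symbols were left out (at most 0.168% of a library's FPKM).

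The filter kept genes reaching 1 FPKM in 5 or more libraries. Values on the log2(FPKM + 1) scale went into limma (version 3.58.1, under R 4.3.3), with 3 group means, an empirical Bayes trend, two-sided tests and Benjamini-Hochberg adjustment over all 11311 genes, at 0.05. A fold on this scale understates changes of low genes. Exact p-values are from two-sided permutation tests of 5 against 5 libraries, unadjusted unless stated, and cannot go below 0.00794. Ratio tests were adjusted over 9 comparisons. The labels do not say whether the tumours came from separate animals. P-values then measure only the spread between these samples.

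The 10 genes, the 19 gene lists (138 genes, 123 tested), and the tests were chosen with earlier results of these data known. Genes outside the 10 were named by rule: all constitutive subunits and activators, the 4 with the smallest p of each other pathway list in the combination against vehicle, 6 interferon and leukocyte genes, and the 8 most like the 10. Calr, Lnpep, Tapbpl, Cdx2, Vil1 and the X-box and Y-box proteins were added after their values were seen. A regulator that the rule names is not reported here. Alternatives were a pseudocount of 0.1, no filter, median-ratio and quantile scaling, a replicate block, the compared groups alone, weights per group and leaving out tumours. Leaving out combination replicates 3 and 5, or anti-PD-1 replicates 4 and 5, was added after the data were seen. Relative depth, read from the spacing of low values, lay between 0.832 and 1.07 in 13 of 14 libraries compared with vehicle replicate 1, and combination replicate 4 had no clear spacing.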

Additional observations from a re-analysis of the deposited data

Results flagged for a closer look

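Of 42 groups of 5 values checked, 4 held a tumour whose gap to its nearest neighbour was large for the range of the group, and chance gives about 1 in 20. In vehicle, Tap1 was lowest in replicate 2 at 92.7 FPKM, with the next value at 100.8. In the combination, Psmb8 was highest in replicate 4 at 619.8 FPKM, with the next at 437, and that library had the highest FPKM sum. Nlrc5 was lowest in combination replicate 2 at 16.7 FPKM, with the next at 20.5. For the log2 ratio of Psmb10 to Psmb7 in the anti-PD-1 group, replicate 4 was highest at -0.80, with the next at -0.86.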

How the results depend on the processing

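Nlrc5 and Tap1 in the combination against vehicle kept direction and call under each alternative. The count of 5 of the 10 genes there was 2 with no filter, 2 with the compared groups alone, 3 without combination replicates 3 and 5, and 2 to 6 when a single tumour was left out. The count of 1 in anti-PD-1 against vehicle was 2 with weights per group, 0 without anti-PD-1 replicates 4 and 5, and 0 to 1 when a single tumour was left out, and the count of 0 between the treated groups was 0 to 3. Over all genes, 4578 calls in the combination against vehicle were 3179 to 5201 under the alternatives, and 3728 to 5201 with a single tumour left out. They are not split by the other settings here, so the counts of 2 and 3 of the 10 are not read against a background. The 628 calls in anti-PD-1 against vehicle were 347 with the replicate block, 2100 with the compared groups alone, 2269 with weights, 70 without anti-PD-1 replicates 4 and 5, and 223 to 646 with a tumour left out; 28.0% of them were higher with quantile scaling, beside 39.8%. The 7 calls between the treated groups were 0 with median-ratio or quantile scaling, the block, the compared groups alone, weights or either pair of tumours left out, and 0 to 2222 with a tumour left out.

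Values that changed sign were uncalled: Tap2 between the treated groups (0.017 with median-ratio scaling, 0.053 without anti-PD-1 replicates 4 and 5), in the combination against vehicle (-0.0060 with quantile scaling) and in anti-PD-1 against vehicle (-0.020 without replicates 4 and 5), and Psmb8 between the treated groups (-0.023 with quantile scaling). With a tumour left out, Psmb8 and Psmb9 between the treated groups ranged from -0.11 to 0.073 and from -0.026 to 0.12. Log2 ratio differences that changed sign then were Psmb8 to Psmb5 between the treated groups (-0.026 to 0.11), Psmb9 to Psmb6 in the combination against vehicle (-0.019 to 0.10), in anti-PD-1 against vehicle (-0.086 to 0.044) and between the treated groups (-0.014 to 0.13), and Psmb10 to Psmb7 between the treated groups (-0.035 to 0.043). Psmb10 to Psmb7 in anti-PD-1 against vehicle ranged from -0.12 to -0.044, and passed without vehicle replicate 5 (exact p = 0.0159). Where no construction of the alternative shows it, the cause was not tested.

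The replicate numbers were not shown to pair tumours: deviations of same-numbered tumours correlated at 0.04 to 0.29 between combination and vehicle, -0.20 to 0.04 between anti-PD-1 and vehicle and -0.39 to -0.12 between the treated groups, and 2, 0 and 0 of 10 libraries correlated best with their own number. With the replicate block 7 of the 10 genes passed in the combination against vehicle, H2-K1 (adjusted p = 0.0178) and Psmb9 (adjusted p = 0.0420) being added. The share over all tested genes with the block is not given here, so this count is not a result about the 10 genes. FPKM give no counts, so what depth limits is unknown.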
